A study of Arabidopsis thaliana with 12 samples.

Results

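PSAN (AT5G64040), PSBW (AT2G30570), PSBY (AT1G67740) and LHB1B2 (AT2G34420) are 4 nuclear genes for proteins of the photosystems and their light-harvesting antenna in Arabidopsis thaliana. Photosystem I and photosystem II are the pigment-protein complexes of the thylakoid membrane that drive photosynthetic electron transport, and the antenna proteins bind chlorophyll and pass absorbed light energy to them. Their nuclear-encoded subunits are made in the cytosol with a transit peptide and enter the chloroplast through the TOC and TIC translocons of its envelope. PSAN is a subunit on the lumenal side of photosystem I, PSBW and PSBY are small membrane subunits of photosystem II, and LHB1B2, also called LHCB1.5, belongs to the LHCB1 family of trimeric antenna proteins. These 4 genes were listed by name, each annotated alone to its probe (85 for PSAN, 3529 for PSBW, 2030 for PSBY and 2665 for LHB1B2). They are 4 of the 692 probes with 1 annotated gene among 3439 probes, and all 4 were above 0 in every sample and were tested.

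Total RNA had been profiled on an expression array in the wild type (WT) and in the toc132 mutant, both of ecotype Columbia 0, with 6 samples each, numbered 1 to 6 in both groups. TOC132 recognises chloroplast preproteins on the cytosolic face of that envelope, and per the labels the mutant imports proteins poorly. No source used here gives the mutant allele, the organ, the plants' age or how they were grown. Whether the samples are separate plants is also unstated, so each p-value reflects sample-to-sample spread that may be technical.

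Deposited intensities are in arbitrary units from 0 to 100 and summed to between 3536 and 3857 per sample. Their median lay between 0.559 and 0.616 in WT 3, WT 4, toc132 1 and toc132 2, and between 0.354 and 0.429 in the other 8 samples. The interquartile range of log2 intensities was 1.56 and 1.59 in toc132 1 and 2 and between 1.84 and 2.08 elsewhere. Consecutive numbers were close: over 2907 probes (genes, not replicates, being the points) Pearson's r was 0.901 to 0.975 within the number sets 1-2, 3-4 and 5-6. WT 1 and 2 stood apart from their group, with a median r of 0.626 with WT 3 to 6 and of 0.909 with the toc132 samples. These values put the group labels in doubt. The labels were kept as given, TOC132 was not analysed here as a check of them, and every value of toc132 minus WT rests on them. Results for the 4 genes are therefore given also without WT 1 and 2. Unless another scaling is named, log2 intensities are quantile-normalised over the 12 samples. In total RNA, a change in the share of green cells and a change in transcript per cell cannot be told apart.

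PSAN had a deposited intensity of 0.851, 1.43 and 1.90 as the lowest, median and highest value in WT, and of 1.81, 1.96 and 2.14 in toc132. The deposited ranges overlapped, because WT 4 (1.90) lay above toc132 1 (1.81) and toc132 2 (1.87). Log2 intensity averaged 0.39 ± 0.41 in WT against 1.01 ± 0.18 in toc132 (mean ± SD, n = 6 each). On this scale all 6 toc132 samples lay above all 6 WT samples, by 0.03 between toc132 1 (0.80) and WT 1 (0.77). The toc132 intensity was 1.54-fold of WT, with a 95% interval of 1.11 to 2.14 (limma adjusted p = 0.132). The 95% intervals given for the 4 genes count the 2 close samples of a number set as independent, so they may be too narrow. By number set the log2 difference grew from 0.05 for 1-2 to 0.76 for 3-4 and 1.05 for 5-6. The WT set means covered a range of 0.81 and the toc132 set means a range of 0.41.

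PSBW was the brightest of the 4 probes. Its deposited intensity was 12.7, 17.3 and 24.1 (lowest, median and highest) in WT, and 17.5, 25.2 and 42.9 in toc132. The highest WT samples were WT 1 (22.4) and WT 2 (24.1), above toc132 1 (17.5) and toc132 2 (19.4), so the deposited ranges overlapped. Log2 intensity averaged 4.17 ± 0.084 in WT against 4.86 ± 0.43 in toc132 (mean ± SD, n = 6 each), without overlap (highest WT value 4.26, lowest toc132 value 4.40). The toc132 intensity was 1.61-fold of WT, with a 95% interval of 1.17 to 2.23 (limma adjusted p = 0.119). Unlike the other 3 genes, PSBW varied little in WT and more in toc132, where the set means covered 0.95 against 0.18 in WT. The numbers 5 and 6 of toc132 stood at 5.37 each, and toc132 3 and 4 at 4.40 and 4.45. In the deposited values the SD of log2 intensity of PSBW was 0.36 in WT and 0.52 in toc132. WT thus varied more there than after quantile normalisation, and nearly as much as PSAN did in WT (deposited SD 0.41). Among probes in general the larger spread was in WT, since 73.9% of 2907 probes had a larger SD among WT set means than among toc132 set means.

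PSBY, whose precursor protein is cleaved into a pair of small thylakoid proteins, had deposited intensities of 0.761, 2.20 and 2.59 (lowest, median and highest) in WT and 1.17, 2.003 and 2.84 in toc132. The low WT values were those of WT 5 (0.764) and WT 6 (0.761), and the lowest toc132 values were also those of number set 5-6, 1.48 and 1.17. The 2 groups overlapped, at a log2 intensity of 0.69 ± 0.79 in WT against 0.95 ± 0.45 in toc132 (mean ± SD, n = 6 each). The toc132 intensity was 1.20-fold of WT, with a 95% interval of 0.702 to 2.04 (limma adjusted p = 0.653), an interval that spans both directions. The log2 differences were -0.30, 0.29 and 0.78 for the sets 1-2, 3-4 and 5-6. The difference turned to -0.25 without WT 5 and 6.

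LHB1B2 had the widest spread in WT. Its deposited intensity was 14.5 in WT 1 and 13.7 in WT 2, 3.96 in WT 3 and 4.38 in WT 4, and 2.64 in WT 5 and 2.62 in WT 6. In toc132 it lay between 8.72 and 12.2, with a median of 9.63. WT 1 and 2 thus exceeded every toc132 sample, and WT 3 to 6 lay below every toc132 sample. Log2 intensity averaged 2.35 ± 1.08 in WT against 3.34 ± 0.25 in toc132 (mean ± SD, n = 6 each), 1.99-fold of WT with a 95% interval of 1.06 to 3.73 (limma adjusted p = 0.172). The WT set means covered a log2 range of 2.38 and the toc132 set means one of 0.53. The value may include signal from related genes: the LHCB1 family has 5 genes in the antenna list used here, LHB1B2 is the only one with a probe of its own, and its neighbour in the RefSeq gene table, AT2G34430 (LHB1B1), belongs to the same family. How much of the signal comes from each was not tested.

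**Figure D1:**
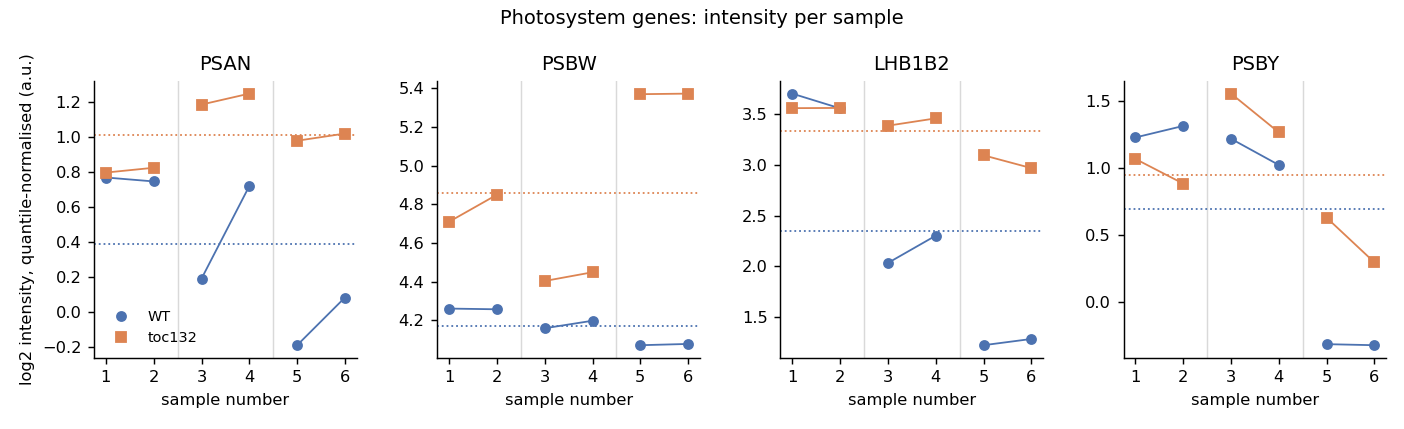
Quantile-normalised log2 intensity (arbitrary units) of PSAN, PSBW, LHB1B2 and PSBY against sample number, with WT as circles and toc132 as squares. Lines join the 2 samples of a number set and dotted lines mark group means over 6 samples; the vertical axes differ between genes and do not start at 0. For LHB1B2, WT 1 and 2 (3.70 and 3.56) lie with the toc132 samples (2.97 to 3.56), and WT 3 to 6 lie between 1.22 and 2.30.

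The 4 differences were read from a limma fit over 3190 probes with Benjamini-Hochberg adjustment. This fit counts the samples of a set as independent, while their consensus correlation within sets was 0.87. With sets averaged, the limma unadjusted p was 0.160 for PSAN, 0.129 for PSBW, 0.145 for LHB1B2 and 0.645 for PSBY. With sets as a random block in limma it was 0.118, 0.0268, 0.0600 and 0.578 in that order. None of the 4 genes passed an adjusted p of 0.05, and 0 probes did (0% of 3190). A limma fit blocked on replicate number passed 21 probes, with none of the 4 genes among them. Before adjustment 807 probes lay under 0.05 in limma, and 14.1% of probes did so as higher in toc132. PSAN (limma unadjusted p = 0.0140), PSBW (0.00708) and LHB1B2 (0.0352) were among the latter. By unadjusted p, PSBW ranked 188, PSAN 336, LHB1B2 653 and PSBY 2350 of the 3190 probes. All 4 genes were higher in toc132, with a median log2 difference of 0.66, while 45.9% of tested probes were higher and their median was -0.06.

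All toc132 samples lay above all WT samples for PSAN and PSBW, 2 of the 4 genes, and for 1.17% of 2907 probes. In the deposited values this held for 0 of the 4 genes and for 2.06% of probes. A 2-sided exact permutation test over samples (924 arrangements) gave p = 0.00216 for PSAN and for PSBW, the smallest it can give, p = 0.0606 for LHB1B2 and p = 0.491 for PSBY. In the deposited values the same exact test gave p = 0.00649 for PSAN, p = 0.0455 for PSBW, p = 0.0714 for LHB1B2 and p = 0.571 for PSBY. These tests count close samples as independent. With the 2 samples of each set averaged, 3 means stood against 3, and the exact permutation p was 0.1 for PSAN and PSBW, the smallest that 20 arrangements allow, 0.4 for LHB1B2 and 0.8 for PSBY. Without WT 1 and 2, PSAN, PSBW and LHB1B2 had a limma adjusted p of 0.0134, 0.0351 and 0.000968, beside 17.8% of probes that passed as higher there. PSBY did not pass without WT 1 and 2 (log2 difference 0.55, limma adjusted p = 0.270). These samples were singled out for lying with toc132, and the fit counts the close pairs that remain as independent, so these p-values are a description and no support for a difference. Without the numbers 1 and 2 of both groups, the limma adjusted p was 0.0234 for PSAN, 0.00820 for LHB1B2 and 0.0740 for PSBW, with the same limits, beside 14.2% of probes. Without WT 1 alone, only LHB1B2 of the 4 passed in limma (adjusted p = 0.0494), beside 7.85% of probes, and without WT 2 alone its adjusted p was 0.0571. Leaving out WT 5 and 6 instead lowered the log2 difference of LHB1B2 from 0.99 to 0.44 (limma adjusted p = 0.497) and that of PSAN from 0.62 to 0.40 (0.325). Leaving out the numbers 5 and 6 of both groups gave 0.38 for PSBW, against 0.69 with all samples, 0.59 for LHB1B2 and 0.41 for PSAN (limma adjusted p = 0.419, 0.482 and 0.419). Leaving out toc132 5 and 6 gave 0.43 for PSBW (limma adjusted p = 0.241).

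The rank of a probe within its own sample does not depend on a scaling that keeps the order of probes. Ranks describe the brightness of probes, not the abundance of transcripts, since probes may differ in length and labelling. PSBW ranked 19 to 24 from the brightest of 3439 probes in WT and 6 to 16 in toc132, and PSAN 374 to 856 in WT and 245 to 373 in toc132. For both genes the toc132 sample was nearer the brightest probe for each of the 6 numbers, which held for 12.9% of 2907 probes. For PSAN the gap was small in the numbers 1 (374 in WT against 373) and 2 (379 against 364). LHB1B2 ranked 34 and 39 in WT 1 and 2, 126 and 101 in WT 3 and 4, and 250 and 239 in WT 5 and 6, while its toc132 ranks lay between 40 and 60. It was nearer the brightest probe in toc132 for 4 of the 6 numbers, all of the sets 3-4 and 5-6. PSBY also was so for those 4 numbers, with WT 5 and 6 at ranks 947 and 960. On average over the 12 samples, 99.6% of probes were dimmer than PSBW, 97.4% dimmer than LHB1B2, 87.9% dimmer than PSBY and 87.5% dimmer than PSAN.

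**Figure D2:**
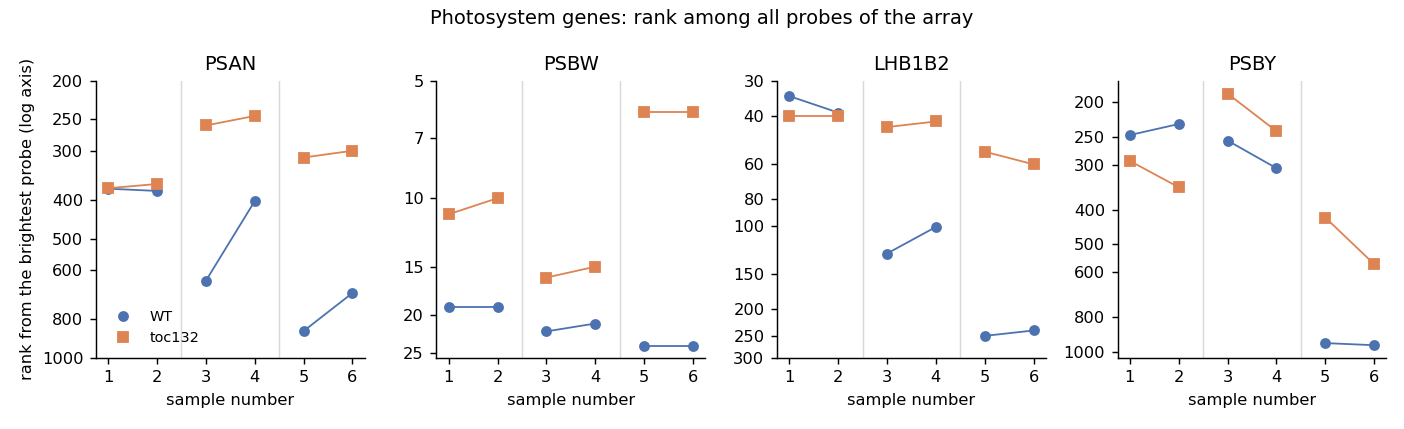
Rank of the PSAN, PSBW, LHB1B2 and PSBY probes among 3439 probes of the same sample, counted from the brightest, on an inverted log axis against sample number, with WT as circles and toc132 as squares; lines join the 2 samples of a number set. PSBW ranks 6 to 16 in every toc132 sample and 19 to 24 in every WT sample.

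Differences were also computed set by set, since same-numbered samples deviated together. In the sets 3-4 and 5-6 all 4 genes were higher in toc132, as were 32.0% of 2907 probes, and this direction held under each of the 4 scalings tried. LHB1B2 had the largest of these differences, 1.26 for 3-4 and 1.78 for 5-6 (log2), at the 89.5th and 91.1st percentile of probes. PSBW differed by 0.25 and 1.30, at the 66.3rd and 84.9th percentile. PSAN lay at the 81.4th and 81.1st percentile and PSBY at the 67.9th and 75.2nd.

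For the set 1-2 LHB1B2 and PSBY were lower in toc132 under each of the 4 scalings, and the direction of PSAN and PSBW depended on the scaling. With quantile normalisation LHB1B2 (-0.07) and PSBY (-0.30) were lower in toc132, as were 44.6% of probes, and PSAN (0.05) and PSBW (0.52) were higher. Cyclic loess gave the same directions, with PSBW at 0.41 and 47.8% of probes lower. In the values as deposited PSBW stood at -0.33, LHB1B2 at -0.56 and PSBY at -0.14, where 12.1% of probes were lower, and PSAN at 0.29. The median log2 difference of all probes in that set was 0.70 as deposited, and relative to it all 4 genes were low, PSBW at the 5.57th, LHB1B2 at the 3.25th, PSBY at the 8.89th and PSAN at the 23.3rd percentile. With median centring all 4 were lower in toc132 (PSAN -0.42, PSBW -1.05, LHB1B2 -1.27 and PSBY -0.86), as were 53.0% of probes. The samples toc132 1 and 2 are those with the narrow intensity distribution, and its part in this dependence was not tested. In the set 3-4 the median of all probes was -0.56 as deposited, and PSBW (0.91) and LHB1B2 (1.50) stood at the 89.1st and 94.4th percentile there.

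**Figure D3:**
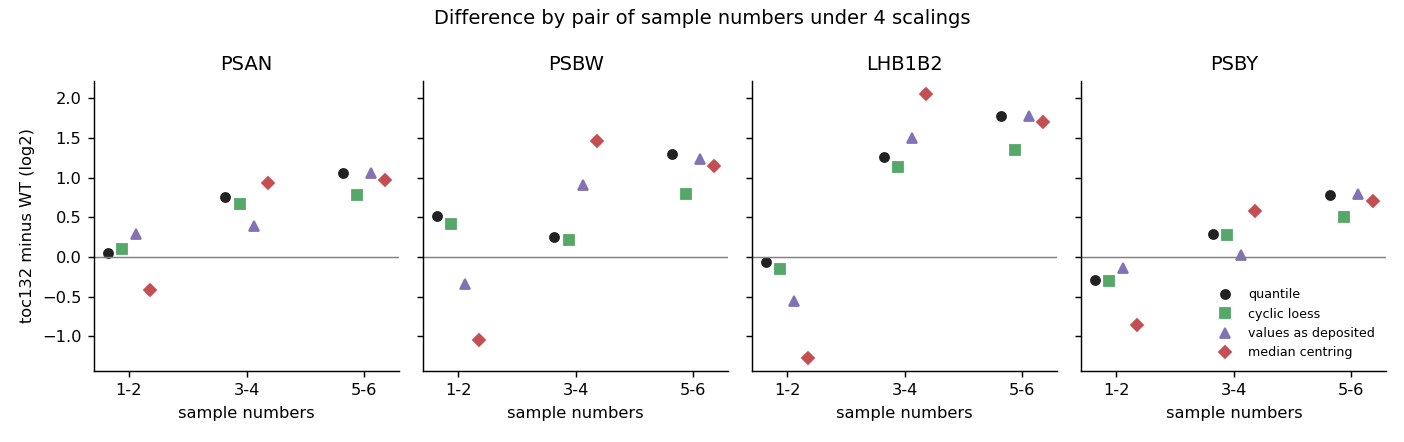
Difference of toc132 minus WT in log2 intensity for the sample numbers 1-2, 3-4 and 5-6, each the mean of 2 toc132 samples minus the mean of 2 WT samples, for PSAN, PSBW, LHB1B2 and PSBY under 4 scalings of the same values. For 5-6 all values lie above 0, with those of cyclic loess lowest (0.80 against 1.30 with quantile normalisation for PSBW), and for 1-2 PSBW runs from 0.52 with quantile normalisation to -1.05 with median centring.

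Within a sample, the ratio of 2 probes is free of any factor that scales the whole sample, so its change between samples was read from the deposited values. The level of such a ratio has no meaning across probes, and only its changes are described. LHB1B2 relative to PSBW fell by number set in both groups, from -0.72 for 1-2 to -1.69 for 3-4 and -2.72 for 5-6 in WT (log2 set means), and from -0.94 to -1.10 and -2.17 in toc132. Between the groups this ratio differed by -0.22, 0.59 and 0.55 (toc132 minus WT) in the same order. PSAN relative to PSBW differed by 0.63, -0.52 and -0.18, and PSBY relative to PSBW by 0.19, -0.88 and -0.45. A change in the width of the intensity distribution does not cancel in such a ratio, and toc132 1 and 2 had a narrow one. After quantile normalisation the directions for PSAN and PSBY reversed in the sets 1-2 and 3-4. There PSAN differed by 0.05 and 0.76, PSBY by -0.30 and 0.29, and PSBW by 0.52 and 0.25. The directions for LHB1B2 relative to PSBW were kept. The 4 genes did not keep a fixed ratio across the sets. In both groups the ratios of PSAN, LHB1B2 and PSBY to PSBW were all lowest in the set 5-6. PSBY stood there at -4.50 in WT and -4.95 in toc132, and PSAN at -4.20 and -4.38. PSBW is the shared denominator, so the low ratio in this set is not particular to PSBY.

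**Figure D4:**
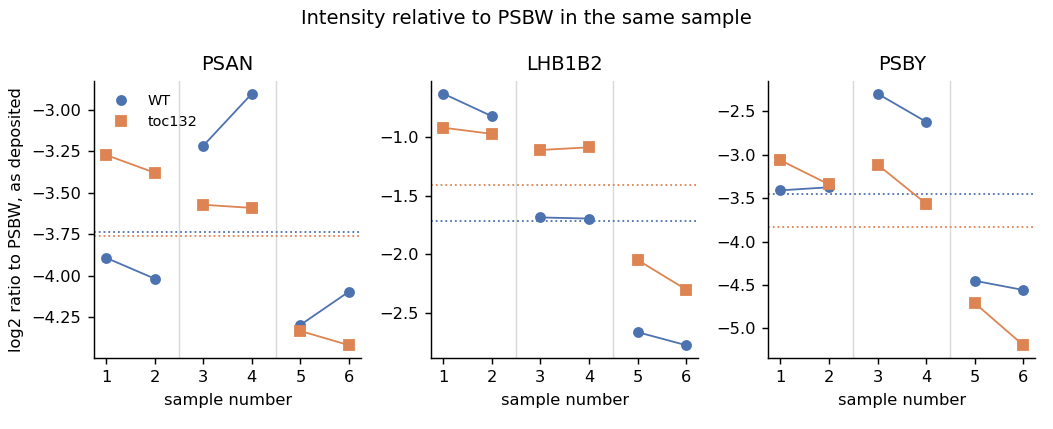
Log2 ratio of the deposited intensity of PSAN, LHB1B2 and PSBY to that of PSBW in the same sample, against sample number, with WT as circles and toc132 as squares; lines join the 2 samples of a number set and dotted lines mark group means over 6 samples. The ratio of LHB1B2 lies between -2.66 and -2.78 in WT 5 and 6 and between -0.63 and -0.82 in WT 1 and 2, and the vertical axes differ between genes.

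The 2 samples of a set lay close for these genes. The SD within sets, pooled over the 6 sets, was 0.044 (log2) for PSBW, 0.10 for LHB1B2, 0.15 for PSBY and 0.17 for PSAN. The SD of the 3 WT set means was 0.093 for PSBW, 1.20 for LHB1B2, 0.88 for PSBY and 0.41 for PSAN. The set means thus spread more than the samples of a set for each of the 4 genes. The largest difference inside a set was 0.53 for PSAN, between WT 3 (0.19) and WT 4 (0.72). For LHB1B2, PSBY and PSAN the SD of the toc132 set means, 0.27, 0.48 and 0.20, was smaller than that of WT. For PSBW it was larger, at 0.48.

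Likeness of profiles was measured as the root mean square difference between log2 profiles over the 12 samples, each centred on its own mean, which is smaller for probes that vary little. PSAN lay 0.41 from PSBW, and 9.29% of 2906 probes were closer to PSAN than PSBW was. PSAN lay 0.46 from PSBY and 0.56 from LHB1B2, with 15.6% and 26.9% of probes closer. PSBW lay 0.78 from LHB1B2 and 0.76 from PSBY, near its median distance to all probes, 0.75. LHB1B2 lay 0.58 from PSBY, with 13.3% of probes closer to LHB1B2, whose median distance was 1.04. Counted from LHB1B2, 28.3% of probes were closer than PSBW.

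Among 583 other probes with 1 gene, the closest to LHB1B2 were AT3G18870 (0.21), AT5G65250 (0.25) and AT3G04210 (0.27). AT3G18870 had log2 differences of -0.26, 1.39 and 1.71 for the sets 1-2, 3-4 and 5-6, and AT5G65250 of -0.01, 1.37 and 1.83. Closest to PSAN were AT2G41950 (0.18), AGL103 (AT3G18650, 0.19), a gene of the MADS-box family of transcription factors, and AT3G12930 (0.19). Closest to PSBW were AT3G26630 (0.26), AT3G25840 (0.26) and AT3G50270 (0.27), with log2 differences in the set 5-6 of 0.77, 0.70 and 0.92. Closest to PSBY were AT1G61990 (0.22), AT4G15840 (0.26) and AT2G37420 (0.29). None of these 12 probes passed in limma, with adjusted p between 0.135 and 0.935.

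The photosystem pathway was sparsely covered by probes with 1 gene. Of 74 genes in 6 lists, 5 had a probe of their own, and 0 passed in limma in either direction. The 5 were the 4 genes above and PSB27 (AT1G03600), a lumenal factor in the assembly and repair of photosystem II. In the main fit the 4 genes were higher in toc132 and PSB27 was lower. The fitted direction of PSB27 turned when WT 3 or WT 4 was left out. The photosystem I core had 1 of 12 genes measured, the photosystem II core and oxygen evolution 3 of 14, and the photosystem II antenna 1 of 15. Photosystem I antenna, electron transport with ATP synthase, and assembly, regulation and targeting had 0 of 6, 12 and 15. Another 4 probes carry a gene of these lists together with other genes and were not used. None of the 8 root and seed markers had a probe of its own, so the organ could not be checked.

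PSB27 had deposited intensities of 4.35, 3.63, 9.80, 8.42, 1.41 and 1.29 in WT 1 to 6. In toc132 1 to 4 they were 3.43, 3.26, 3.63 and 3.43, and the probe was listed at 0 in toc132 5 and 6. The 4 measured toc132 values lay together, inside the WT range, while the WT sets stood apart from each other. The fit left out the 2 values at 0 and gave a log2 difference of -0.11 ± 0.64 (SE, limma adjusted p = 0.923). With an offset of 0.1 before log2, which keeps them, it was -1.87 ± 1.17 (SE, limma adjusted p = 0.314). The direction in the main fit, which left out toc132 5 and 6 but kept WT 5 and 6, turned with single libraries. The log2 difference was 0.25 without WT 3, 0.16 without WT 4, -0.42 without WT 5 and -0.44 without WT 6. It was 0.67 without WT 3 and 4, -0.91 without WT 5 and 6, and -0.91 with replicate number as a block. In the deposited values the 0 listed for toc132 5 and 6 stood against 1.41 and 1.29 in WT 5 and 6. In the sets 1-2 and 3-4 PSB27 was also lower in the toc132 sample of each number in these values. Within photosystem II, PSB27 and PSBW therefore had opposite directions for the numbers 3 and 4, where PSBW was higher in toc132 under each scaling tried. PSB27, LHB1B2, PSBY and PSAN all had their lowest deposited WT values in WT 5 and 6, and PSBW in WT 3 and 4.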

How the data were processed

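The deposited table holds linear intensity values per probe, on a scale from 0 to 100. The array, scanner, background correction and scaling have no source here, so fold changes depend on any step before deposit. All 12 columns were used, and 0 columns had no sample. Groups and numbers come from the sample titles. Probes were named through the platform annotation and RefSeq TAIR10.1, which served only for names and neighbours.

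Values of 0 were set to missing, the rest taken to log2 and quantile-normalised. Each probe was fitted in limma 3.58.1 under R 4.3.3 (lmFit, eBayes, 2-sided, no covariate), for probes with at least 4 values per group (3 where a group was reduced to 4 samples), with Benjamini-Hochberg adjustment and a threshold of 0.05. The fit was tested on simulated data with independent samples and the spread of the toc132 group. That test leaves out the close pairs of samples seen here, so it cannot tell how the p-values behave with them. Ranks, set differences, exact permutation tests and figures were made in Python 3.11.15 with matplotlib 3.10.9.

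The titles share numbers between the groups. Over 2907 probes, deviations of same-numbered samples from their group means correlated at 0.15 to 0.44, all above the limit of 0.1, so the numbers were taken to pair the samples. With the set's other number the correlation was 0.15 to 0.33. Number 4 correlated less with its own number (0.153) than with the set's other number (0.160). The fit blocked on replicate number used the pairing, and the main limma fit and the exact permutation tests did not.

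The 4 genes, the number sets and the lists were chosen with earlier results of these data known. Other genes are named by rule: the 3 closest profiles with 1 gene for each of the 4, and every list gene with a probe of its own.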

Additional observations from a re-analysis of the deposited data

Results flagged for a closer look

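PSBY differed in direction between sets of sample numbers. Its quantile-normalised log2 intensity was lower in toc132 for the numbers 1 (-0.16) and 2 (-0.43), and higher for 3 (0.34), 4 (0.24), 5 (0.95) and 6 (0.62). The difference of the set 3-4 exceeded that of 1-2 by 0.59, and the difference of 5-6 exceeded it by 1.08. These differences between sets were not tested. In none of the 8 groups of 6 samples (4 genes, 2 groups) did a single sample lie far enough from the others to be picked out by Dixon's criterion of 0.625. That criterion can hardly pick out a sample when the other sample of its set lies close to it. For LHB1B2, WT 1 and 2 stood at 3.70 and 3.56, and WT 3 to 6 between 1.22 and 2.30. It therefore cannot decide whether samples deviated.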

How the results depend on the processing

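Of 124 values for the 4 genes under alternatives, 122 kept the direction. Some of these values could not change it, because the fit left the estimates of the 4 genes as in the main fit. That was so without the dimmest probes, with only probes measured in all samples, and with a trended robust eBayes. It was also so with replicate number or number sets as a block, and with number sets averaged. The count therefore overstates how far the directions were tested. PSBY turned to -0.25 without WT 5 and 6 and to -0.0028 without the numbers 5 and 6 of both groups, and the cause was not tested. Without WT 1 and 2 the differences that passed were 0.81 for PSAN, 0.73 for PSBW and 1.63 for LHB1B2, and 0.91 for PSAN and 1.52 for LHB1B2 when the numbers 1 and 2 were dropped from both groups. Without WT 5 and 6 LHB1B2 fell to 0.44 and PSAN to 0.40, and without the numbers 5 and 6 PSBW fell to 0.38. Leaving out each sample gave 0.51 to 0.70 for PSAN, 0.59 to 0.78 for PSBW, 0.76 to 1.26 for LHB1B2 (passing only without WT 1) and 0.056 to 0.39 for PSBY.

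The count of passing probes was 0, and 0 to 423 when each sample was left out. With the replicate number as a block it was 21, and the block changed no call of the 4 genes (limma adjusted p = 0.0899 for PSAN, 0.0764 for PSBW, 0.0822 for LHB1B2 and 0.402 for PSBY). It was 1133 without WT 1 and 2, 831 without the numbers 1 and 2, 2 with the offset of 0.1 and 2 without toc132 5 and 6. It was 1 without the dimmest 25% of probes and 1 with a trended robust eBayes, and 0 with the other alternatives that kept all samples. The cause of these changes was not tested. With number sets as a random block, limma gave an adjusted p of 0.641 for PSAN and 0.580 for PSBW and LHB1B2. Leaving out toc132 sets, and the scalings within number sets, were added after seeing the data. Of 12 set values under other scalings, 3 changed sign for 1-2 and 0 each for 3-4 and 5-6. Sizes changed in these sets too. For 3-4 PSBW ran from 0.21 with cyclic loess to 1.46 with median centring. PSBY stood there at 0.03 as deposited, against 0.29 with quantile normalisation. Signal over background was not given, so its limits were not assessed.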
